A study of Mus musculus with 2 samples.

Results

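The neuromuscular junction receptor and synapse genes described here are 10 genes taken by name: the acetylcholine receptor subunits Chrna1, Chrnb1, Chrnd, Chrne and Chrng, the receptor-clustering genes Musk, Dok7 and Rapsn, and the esterase genes Ache and Colq. All 10 were found, out of 15631 annotated genes with a read in at least 1 library. Every transcript model that carried one of these gene names was used, with no threshold on a measured value. The material was total RNA of gastrocnemius, the large calf muscle, from male B6CASTF1/J mice aged 10 days, the F1 hybrid of a C57BL/6J and a CAST/EiJ parent. The series is 1 group without treatment, mutation or control, sequenced as long reads in 2 biological replicates, each 1 library made from 2 µg of RNA. The labels number the males of the replicates separately but give both the same donor ID, so separate animals are not stated outright. The p-values set the difference between these libraries against read-counting error only, and that difference may be technical. Reads of the parental alleles were not separated. With no condition to contrast, replicate 1 was compared with replicate 2, and each p-value below compares those 2 libraries only.

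At the neuromuscular junction the motor nerve releases acetylcholine onto a small, receptor-dense patch of the muscle fibre. Agrin from the nerve binds LRP4, which activates the kinase MuSK; the adaptor Dok-7 and the scaffold protein rapsyn then gather the receptors under the nerve ending. The muscle receptor contains alpha, beta and delta subunits together with either the gamma subunit, the fetal form, or the epsilon subunit, the adult form, and in rodents epsilon takes over from gamma in the period after birth. Acetylcholinesterase, held in the basal lamina by the collagen tail ColQ, ends the signal.

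Sequencing gave 1172413 reads for replicate 1 and 957529 for replicate 2, and mouse transcripts took 1145490 and 941841 of them. A gene's level is its number of reads, summed over its models, for every 1000000 mouse reads (CPM), and 3 reads, taken as the floor, equal 2.62 CPM in replicate 1 and 3.19 CPM in replicate 2. The 10 genes together took 570 and 401 reads, 498 and 426 CPM. Markers that define the labelled tissue were high, and the summed level of 6 muscle fibre genes, such as Acta1 and Ckm, was 246431 and 258395 CPM. Of 11 markers of motor nerve endings, 8 had no read in either library, among them Chat and Slc18a3, the defining genes of cholinergic neurons. In bulk tissue, fewer cells of a type and less RNA per cell cannot be told apart, and intervals below cover counting error only.

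On mm10, the receptor subunit genes lie at chr2:73563215-73580338 (Chrna1), chr11:69784036-69795943 (Chrnb1), chr1:87190607-87200070 (Chrnd), chr11:70614883-70619216 (Chrne) and chr1:87204657-87212694 (Chrng). The clustering genes lie at chr4:58285960-58374303 (Musk), chr5:35056766-35087839 (Dok7) and chr2:91035620-91045729 (Rapsn), and the esterase genes at chr5:137287519-137294466 (Ache) and chr14:31523082-31591343 (Colq). All 10 genes were detected in both libraries, over a range from about 100 CPM down to a handful of reads. Chrna1, which encodes the acetylcholine-binding alpha subunit, had 104 CPM (119 reads) in replicate 1 and 111 CPM (105 reads) in replicate 2. Ache, which encodes acetylcholinesterase, had 130 CPM (149 reads) and 68.0 CPM (64 reads). Chrnb1, the beta subunit, had 78.6 CPM (90 reads) and 59.5 CPM (56 reads). These 3 genes stood at the top of the order by mean CPM, but the range of Ache over the libraries overlapped those of Chrna1 and Chrnb1, so the place of Ache among them is not settled.

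Rapsn, the rapsyn gene, followed with 54.1 and 57.3 CPM (62 and 54 reads). Dok7 had 42.8 and 42.5 CPM (49 and 40 reads). Chrne, the epsilon subunit, had 38.4 and 32.9 CPM (44 and 31 reads). From Chrnb1 down to Chrng the ranges of neighbouring genes over the libraries did not overlap. These ranges hold only the library values and leave out counting error. The exact Poisson intervals of the same neighbours overlapped in both libraries. In replicate 2, for instance, they were 44.9 to 77.2 CPM for Chrnb1 and 43.1 to 74.8 CPM for Rapsn. The order of these neighbours is therefore not settled by the ranges. Colq had 26.2 and 26.5 CPM (30 and 25 reads), and Chrnd, the delta subunit, had 12.2 and 12.7 CPM (14 and 12 reads). Chrng, the gamma subunit, had 6.98 and 7.43 CPM (8 and 7 reads). Musk, the receptor kinase, was the scarcest at 4.36 and 7.43 CPM (5 and 7 reads), and its range overlapped that of Chrng. In all, 6 of the 9 neighbouring pairs had separate ranges of library values, which does not settle their order. The median gene of the 10 lay at percentile 79.7 of annotated genes with reads, whose median was 8.42 CPM. On a second scale, CPM per kilobase of mean transcript model length, the order of levels became Ache, Rapsn, Chrnb1, Chrna1, Chrne, Dok7, Colq, Chrnd, Chrng and Musk, and 5 of 10 genes kept their rank.

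**Figure D1:**
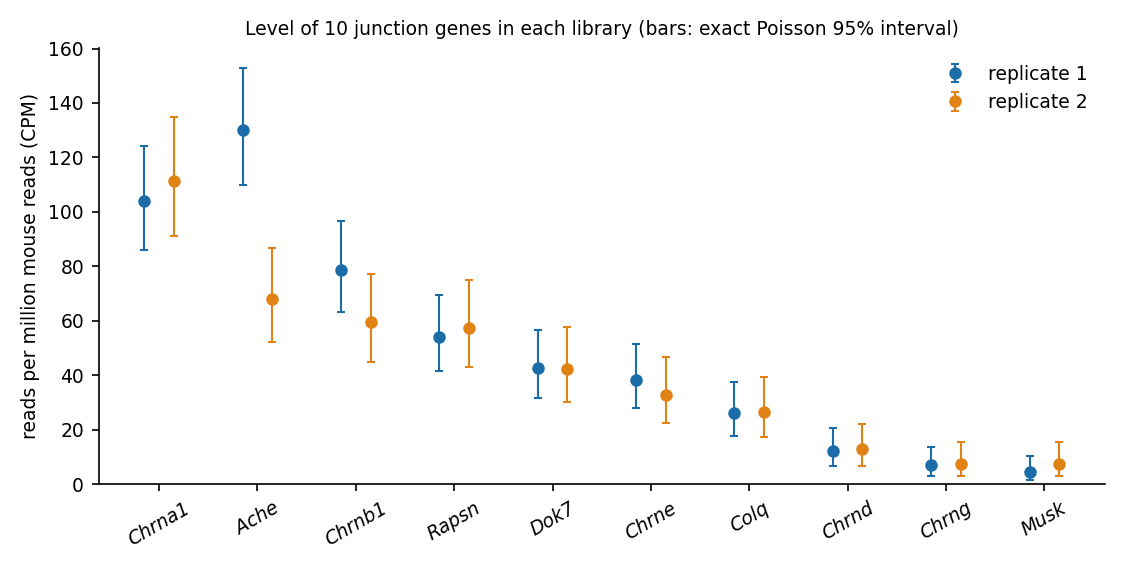
Level of each gene in reads per 1000000 mouse reads (vertical axis, linear) in replicate 1 (blue) and replicate 2 (orange), with the exact Poisson 95% interval of the reads. Genes run from Chrna1 to Musk by mean CPM, and Ache is the gene whose libraries lie farthest apart, at 130 CPM in replicate 1 and 68.0 CPM in replicate 2.

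The 8 genes that had a sum of at least 20 reads entered an exact two-sided conditional binomial test fitted over 7655 genes. Of these 8 genes, 0 were called at a Benjamini-Hochberg adjusted p under 0.05 and a 2-fold difference, beside 4.66% of all genes tested. Only Ache had an unadjusted p under 0.05. Its level was 1.91-fold higher in replicate 1 than in replicate 2 (p = 9.05e-06, adjusted p = 0.000184, exact binomial test), which passed the threshold on p but not the fold limit. The 2 libraries also differed in mean transcript model length, 2527 nt in replicate 1 and 2264 nt in replicate 2. Summed fibroblast markers were 19650 and 11850 CPM, mostly from Col1a1 (7947 and 4216 CPM) and Col3a1 (10116 and 6082 CPM). Of these 5 markers, only Dcn was higher in replicate 2, at 512 and 611 CPM. Summed red cell markers were also higher in replicate 2, at 409 and 853 CPM. The part of these differences in the Ache difference was not tested. The other 7 tested genes did not pass, with adjusted p between 0.377 and 1. Chrng and Musk fell under the read minimum and were not tested.

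The receptor transcripts were dominated by the alpha and beta subunits, and the epsilon subunit far outnumbered gamma. Among the 5 subunit genes, which took 275 and 211 reads, Chrna1 made up 43.3% of reads in replicate 1 and 49.8% in replicate 2. Chrnb1 made up 32.7% and 26.5%. Chrne made up 16.0% (exact Clopper-Pearson interval 11.9% to 20.9%) and 14.7% (10.2% to 20.2%). The minor subunits were Chrnd, at 5.09% and 5.69%, and Chrng, at 2.91% and 3.32%. Chrna1 had 8.50 and 8.75 times the reads of Chrnd. Of the reads of Chrne and Chrng together, Chrne took 44 of 52, or 84.6% (71.9% to 93.1%), in replicate 1 and 31 of 38, or 81.6% (65.7% to 92.3%), in replicate 2. The 2 libraries did not differ detectably in this share (p = 0.778, Fisher's exact test, two-sided).

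Per kilobase of mean model length the subunit shares shifted, since Chrna1 models had the greatest mean length of the subunits, 4186 nt. That length rests mainly on the annotated end of Chrna1-201. The unannotated Chrna1 chains of 9 exons had 1962 nt and 1751 nt, so shares on this scale are uncertain. The mean share of Chrna1 was then 29.9%, below the 37.6% of Chrnb1. Chrne had a mean share of 23.9% on that scale, while Chrnd had 5.18% and Chrng 3.44%. Chrne stayed above Chrnd and Chrng on both scales and in both libraries.

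**Figure D2:**
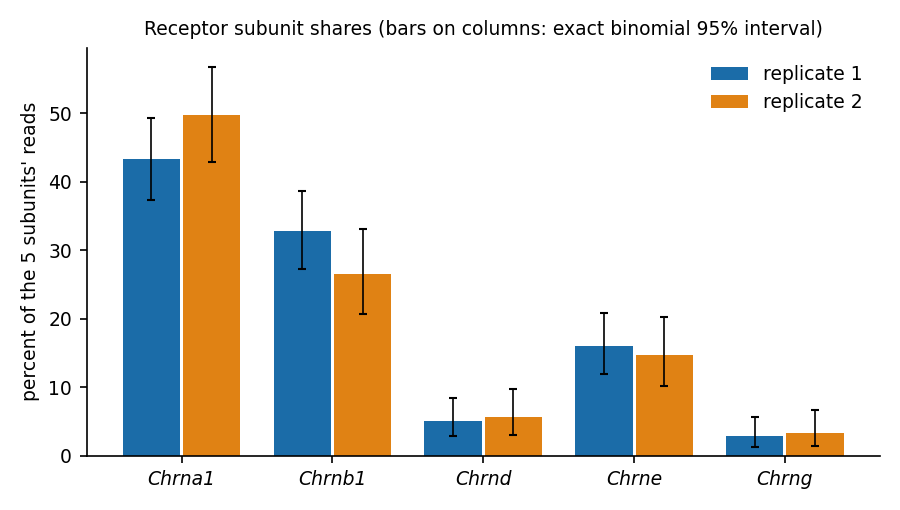
Share of each receptor subunit gene in the reads of the 5 subunit genes (vertical axis, percent) in replicate 1 (blue, 275 reads) and replicate 2 (orange, 211 reads), with the exact binomial 95% interval. The column for Chrne is 16.0% in replicate 1 and 14.7% in replicate 2, against 2.91% and 3.32% for Chrng.

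Many reads of Chrne skipped an annotated coding exon. The exon is exon 5 of 12 in Chrne-202, 156 nt long, at chr11:70618155-70618310 on the minus strand (mm10). It is shown here in capitals between 20 bases of the neighbouring exons in lower case, from the GENCODE M21 transcript, because its presence separates the main Chrne transcripts.
Chrne exon 5: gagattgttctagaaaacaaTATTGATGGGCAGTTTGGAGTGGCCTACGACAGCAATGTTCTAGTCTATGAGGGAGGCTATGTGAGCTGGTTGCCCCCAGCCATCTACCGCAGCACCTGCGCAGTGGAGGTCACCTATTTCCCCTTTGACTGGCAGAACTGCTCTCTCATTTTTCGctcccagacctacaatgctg
Within it lie the codons of 2 cysteines separated by 13 codons, the spacing of the Cys-loop that gives this receptor family its name. The length is a multiple of 3, so a transcript without the exon kept the reading frame and the annotated stop codon, with 441 codons in place of 493.

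Inclusion is the share of reads that hold exactly the exon among those that either hold it or skip it whole, called its spanning reads here, and reads with another form of the exon are left out. Of the spanning reads, 22 of 41 contained it in replicate 1, an inclusion of 53.7% (Wilson interval 38.7% to 67.9%). In replicate 2, 19 of 28 contained it, 67.9% (49.3% to 82.1%). The exon was thus present and absent in sizeable shares of reads in both libraries. Fitted over 1713 internal exons with inclusion between 5% and 95%, of which 0.175% were called, 2 exons of the 10 genes were tested and 0 called. For Chrne exon 5 the libraries differed by 14.2 points (p = 0.319, adjusted p = 1, Fisher's exact test), and neither tested exon had an unadjusted p under 0.05. Skipping used mainly an intron of 704 nt that joins the flanking annotated splice sites and that GENCODE M21 does not list, with 15 and 9 reads. A longer intron of 736 nt, which also removes the end of exon 4, had 3 reads in replicate 1 and 0 in replicate 2.

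No read skipped the corresponding exon of Chrna1, Chrnd or Chrng whole. The exon with the same cysteine codon pair was exon 5 in Chrna1, Chrnd and Chrng as well, and in Chrnb1 the pair lies across an exon boundary. In Chrna1 all 115 spanning reads of replicate 1 and all 100 of replicate 2 held the exon, and 1 further read of replicate 2 held a form of it shortened to 109 nt. In Chrnd it was present in 14 of 14 and 10 of 10. In Chrng it was present in 7 of 7 in each library, where the Wilson interval reaches down to 64.6%. Over all 10 genes, 74 of 77 annotated internal exons with 10 or more spanning reads were included in more than 95% of them. By this measure, which does not count forms of an exon against each other, the lowest inclusion was that of Chrne exon 5, 59.4% over both libraries.

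**Figure D3:**
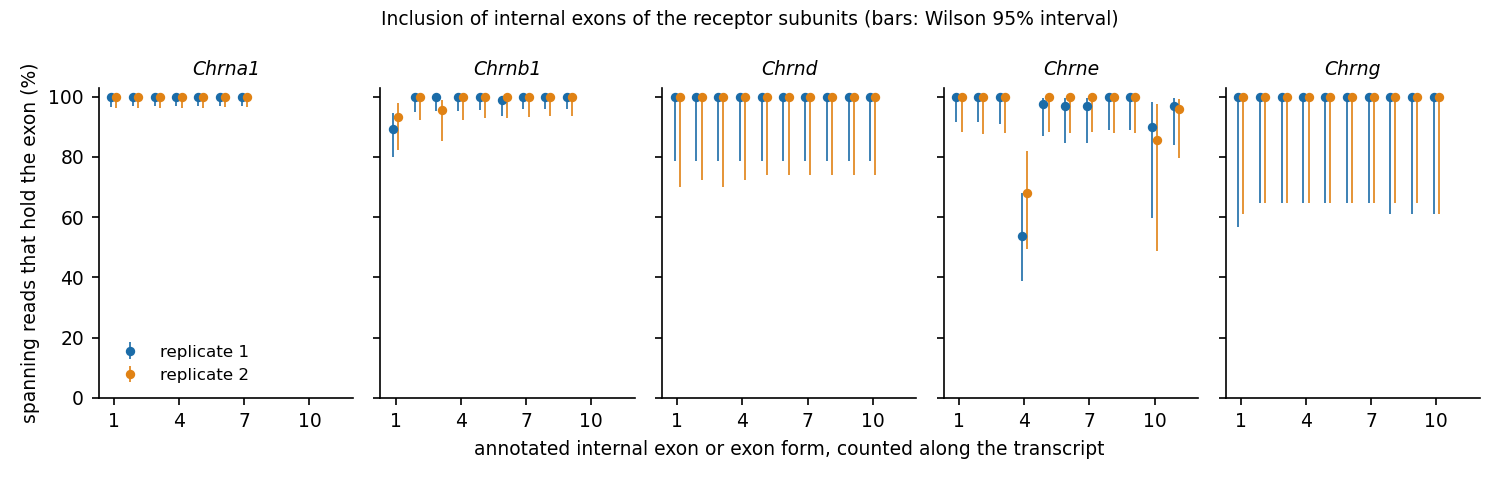
Inclusion of each annotated internal exon of the 5 receptor subunit genes (vertical axis, percent of spanning reads that hold the exon) along the transcript (horizontal axis), with 10 or more spanning reads over both libraries, in replicate 1 (blue) and replicate 2 (orange), with the Wilson 95% interval. The fourth internal exon of Chrne lies at 53.7% and 67.9%, the first of Chrnb1 at 89.2% and 93.3%, and the last points of Chrne are forms of 1 exon that differ by 3 nt.

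A second choice in Chrne was a 3-nt shift of the acceptor at exon 11, between annotated sites. Chrne-201 carries 3 more bases than Chrne-202 at this junction, shown in capitals in the first of these GENCODE M21 sequences.
Chrne-201 exons 10 to 11: acggaacttggaccgCAGcagccctctgcc
Chrne-202 exons 10 to 11: acggaacttggaccgcagccctctgcc
The shorter exon form, with an intron of 85 nt, had 31 of 41 reads in replicate 1, 75.6% (60.7% to 86.2%), and 24 of 30 in replicate 2, 80.0% (62.7% to 90.5%). The longer form, with an intron of 82 nt, had 10 and 6 reads. Both choices occurred in every combination. Of reads with exon 5, 4 in replicate 1 and 3 in replicate 2 used the longer form, and 18 and 15 used the shorter form. Of reads without exon 5, 6 and 2 used the longer form, and 12 and 7 used the shorter form.

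The 4 Chrne chains found in both libraries follow from these choices. Chrne-202 had 13 of 44 reads in replicate 1, 29.5% (18.2% to 44.2%), and 14 of 31 in replicate 2, 45.2% (29.2% to 62.2%). Its counterpart without exon 5, an unannotated chain of 11 exons and 1435 nt, had 7 reads in each, 15.9% and 22.6%. Chrne-201 had 4 and 3 reads, and the unannotated chain of 1438 nt without exon 5 had 3 and 2 reads. Together with rarer chains, unannotated combinations of known splice sites made up 45.5% of Chrne reads in replicate 1 and 38.7% in replicate 2, beside 12.1% and 5.89% of all mouse reads, a comparison made without a test. Some Chrne reads also kept introns: an exon form that runs through 3 introns, from chr11:70615400 to 70617347, had 6 and 2 reads. The gene 4930544D05Rik lies on the opposite strand inside that stretch and had 0 reads in both libraries.

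**Figure D4:**
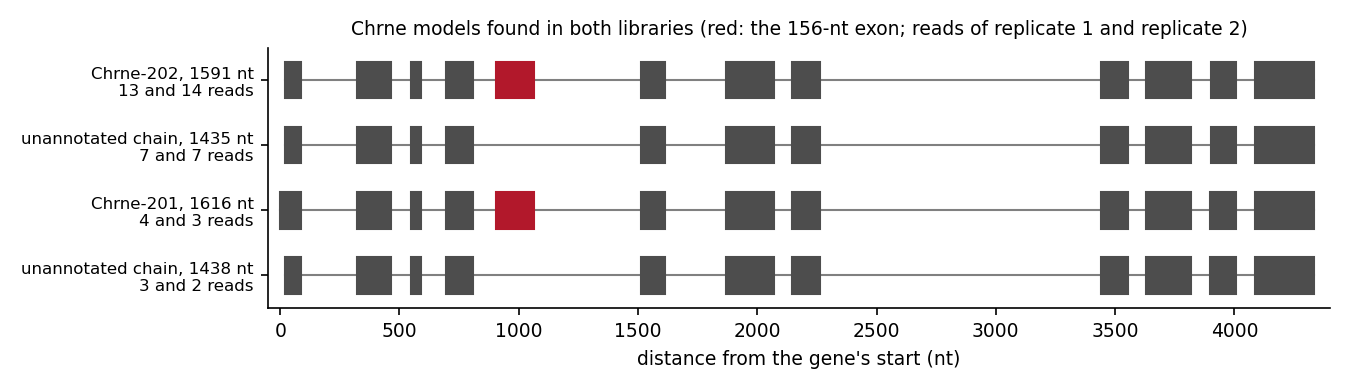
The 4 Chrne exon chains found in both libraries, drawn to scale from the gene's start (horizontal axis, nt), with exons as boxes, introns as lines and exon 5 in red. The reads of replicate 1 and replicate 2 stand beside each chain; the chains with exon 5 have 13 and 14, and 4 and 3 reads, and those without it have 7 and 7, and 3 and 2.

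Most reads of the other subunits followed their annotated transcript. Chrna1-201, of 9 exons and 4386 nt, held 109 of 119 Chrna1 reads (91.6%) in replicate 1 and 100 of 105 (95.2%) in replicate 2. Chrnd-201 held 14 of 14 and 8 of 12 Chrnd reads, and Chrng-201 held 4 of 8 and 6 of 7 Chrng reads. Chrnb1-201 held 64 of 90 reads (71.1%) and 36 of 56 reads (64.3%). The rest of Chrnb1 included an 1977-nt chain of 10 exons with 7 and 3 reads and an incomplete chain of 5 exons with 5 and 4 reads.

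The Chrnb1 chain of 10 exons lacks exon 2, of 140 nt at chr11:69795595-69795734 on the minus strand, which is printed below in the same way since it was the other exon tested.
Chrnb1 exon 2: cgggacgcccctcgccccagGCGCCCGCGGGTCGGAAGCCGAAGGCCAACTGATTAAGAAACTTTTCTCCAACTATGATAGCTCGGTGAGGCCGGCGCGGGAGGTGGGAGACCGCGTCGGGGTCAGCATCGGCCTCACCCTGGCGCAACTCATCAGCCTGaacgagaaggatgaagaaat
In replicate 1 it was present in 66 of 74 spanning reads, 89.2% (80.1% to 94.4%), and in replicate 2 in 42 of 45, 93.3% (82.1% to 97.7%), and the libraries did not differ detectably (p = 0.531, adjusted p = 1, Fisher's exact test). Unlike Chrne exon 5, its length is not a multiple of 3. Without it the reading frame of Chrnb1-201 meets a stop after 23 codons in place of 501. The skipping intron, of 808 nt, is annotated and had 8 and 3 reads. Variant edges of this exon, of 79 nt and 156 nt, had 0 reads in replicate 1 and 1 read each in replicate 2.

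Among the receptor-clustering genes, Rapsn was read mostly as its annotated full-length transcript. Rapsn-201 held 50 of 62 reads (80.6%) in replicate 1 and 43 of 54 (79.6%) in replicate 2. The exon most often skipped, exon 3 of 159 nt at chr2:91041854-91042012, was absent in 3 of 59 and 2 of 54 spanning reads. Skipping it is annotated in Rapsn-203 and leaves 359 of 412 codons in frame. A last exon starting at chr2:91045351, upstream of the annotated acceptor at 91045446, was used in 3 and 4 reads and belongs to an unannotated chain of 1722 nt.

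Most Dok7 reads ended at the shorter of its annotated ends. The last exon that starts at chr5:35079031, which carries the stop codon of Dok7-203, closed 39 of 49 reads (79.6%) in replicate 1 and 31 of 40 (77.5%) in replicate 2. The last exon of Dok7-201, which lies farther downstream at chr5:35086996, closed 2 and 5 reads. Dok7-203 was the leading transcript, with 23 reads (46.9%) and 21 reads (52.5%). An incomplete chain of its last 6 exons had 8 and 3 reads. The model of that chain starts at chr5:35057077, as Dok7-201 does. Its first donor, at 35057137, is also an annotated first donor and was used as such in 8 and 5 reads. Reads from the last exon alone, of 1934 nt, numbered 5 and 4. An alternative donor of the first exon, at chr5:35056964 in place of 35056988, had 1 read in replicate 1 and 3 in replicate 2.

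Musk was seen in too few reads to describe its isoforms by shares, and no Musk chain was found in both libraries. In replicate 1, 3 of 5 reads were unspliced genomic fragments at the end of the gene, and 1 read was the short transcript Musk-206. In replicate 2, 4 of 7 reads were incomplete chains from the end of the gene. Short coding exons that differ among annotated Musk transcripts were both used and skipped. The 30-nt exon at chr4:58327326-58327355 was present in 1 of 1 spanning reads and in 1 of 3. The 24-nt exon at chr4:58356482-58356505 was likewise present in 1 of 1 and in 1 of 3. All reads across the intron before the exon at 58353944, 1 in replicate 1 and 3 in replicate 2, used a donor after chr4:58344315 that is not in GENCODE M21.

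The esterase genes varied mainly at their 5′ ends. Of Ache reads, 140 of 149 (94.0%) in replicate 1 and 61 of 64 (95.3%) in replicate 2 ended in the last exon at chr5:137294117, the exon of the synaptic, tailed form of the enzyme that binds ColQ. Reads that ran on from the exon at 137293168 without that intron numbered 8 and 2. An acceptor at 137293454 closed 1 read in each library. At the start, the donor at 137288367 was used in 110 reads (73.8%) and 41 reads (64.1%), and an unannotated first donor at 137289738 was used in 7 and 3 reads.

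From the main start, Ache transcripts divided at a 3-nt acceptor choice before the exon with the start codon, with a split close to even. The acceptor at 137290012 took 64 of 109 reads in replicate 1, 58.7% (49.3% to 67.5%), and 23 of 41 in replicate 2, 56.1% (41.0% to 70.1%). The acceptor at 137290009 took the remaining 45 and 18 reads. By model, Ache-201 held 60 reads (40.3%) and 21 reads (32.8%), and Ache-202 held 40 reads (26.8%) and 17 reads (26.6%). A chain of the last 4 exons without the first intron had 16 and 10 reads.

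Colq was read from both of its annotated starts. Each start has its own coding first exon, so the encoded N-terminus differs. Their coding parts are printed from GENCODE M21 with the start codon in capitals, since they tell the transcripts apart; they lie at chr14:31557792-31557867 for Colq-205 and at chr14:31577143-31577248 for Colq-201, on the minus strand.
Colq-205 first coding bases: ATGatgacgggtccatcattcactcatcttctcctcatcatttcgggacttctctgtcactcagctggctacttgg
Colq-201 first coding bases: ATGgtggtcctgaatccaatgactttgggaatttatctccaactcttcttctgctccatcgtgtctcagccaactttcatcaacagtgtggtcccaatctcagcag
The Colq-205 start was read in 13 of 30 reads (43.3%) in replicate 1 and in 11 of 25 reads (44.0%) in replicate 2. The Colq-201 start was read in 11 reads (36.7%) and 7 reads (28.0%). The remaining reads began downstream of both, at sites with at most 2 reads in a library. Among reads that joined either first exon to the same second exon, Colq-205 took 10 of 19, 52.6% (31.7% to 72.7%), and 10 of 16, 62.5% (38.6% to 81.5%), so neither start prevailed beyond counting error. The annotated proteins have 447 codons from Colq-205 and 457 codons from Colq-201. The gene Gm49387, which overlaps Colq on the same strand, had 0 reads.

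The annotated starts of Chrne and Chrng allowed their promoters to be set side by side. RefSeq windows on GRCm38.p6, reaching from 250 bases before to 50 bases after a start, were at hand for 7 of the 10 genes, in 8 windows. Chrnd, Rapsn and Colq had no window, so whether they hold these motifs was not examined. They were searched for the E-box CANNTG, the motif of MyoD-family factors, which reads the same on both strands, and for the N-box, CCGGAA or TTCCGG on the other strand, a motif of ETS-family factors described in synaptic genes. By their letters the motifs cannot overlap. An E-box was found in 7 of the 8 windows, beside 72.3% of 32851 windows in the table. Chrna1, Chrnb1, Chrng and Musk had 3 E-boxes each, beside 17.6% of all windows with 3 or more. The N-box was found in 1 of the 8 windows, that of Chrne, beside 14.9% of all windows. It began 76 bases before the Chrne start, and the E-box began 138 bases before it. The 250 bases before each start are shown with these motifs in capitals, Chrne from chr11:70619195-70619444 on the minus strand and Chrng from chr1:87205561-87205810 on the plus strand.
Chrne promoter: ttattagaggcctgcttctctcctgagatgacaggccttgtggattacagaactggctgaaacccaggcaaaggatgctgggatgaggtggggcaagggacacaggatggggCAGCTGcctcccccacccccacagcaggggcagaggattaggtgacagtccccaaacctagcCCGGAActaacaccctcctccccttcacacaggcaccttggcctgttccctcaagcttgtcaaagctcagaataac
Chrng promoter: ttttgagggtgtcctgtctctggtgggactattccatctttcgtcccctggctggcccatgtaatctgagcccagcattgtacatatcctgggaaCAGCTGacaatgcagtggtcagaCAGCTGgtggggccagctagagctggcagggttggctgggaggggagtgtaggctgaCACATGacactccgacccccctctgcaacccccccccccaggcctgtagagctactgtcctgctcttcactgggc
A match describes letters only and says nothing of binding. The RefSeq start of Chrne coincides with the start of Chrne-202, whose chain led the Chrne reads.

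Over all 10 genes, most reads belonged to transcript models found in both libraries. Reads fell into 138 models, of which 44 were found in both libraries and held 88.1% of reads, while 79 models rested on a single read. Of 120 models tested in 7 genes, 0 were called by Fisher's exact test with the Benjamini-Hochberg adjustment and a limit of 10 points, beside 0.148% of 70901 models over all genes, and 0 had an unadjusted p under 0.05. The read minimum applied to the gene, so most models of 1 read were among those tested. Such models cannot reach a p under 0.05 here. Even a Chrnb1 model with 0 and 3 reads had p = 0.0546 (Fisher's exact test). For rare models the result was thus fixed beforehand and does not show that the libraries agree. Annotated transcripts made up 71.1% of the reads of the 10 genes in replicate 1 and 71.3% in replicate 2, beside 70.9% and 74.9% of all mouse reads. Incomplete chains, which match a stretch of an annotated transcript, made up 15.3% and 12.7%, beside 8.68% and 7.49% of all mouse reads. Chains with a splice site not in the annotation made up 4.74% and 7.73%, and reads of the genomic class, which lack the annotated splicing, 0.877% and 0.499%. An annotated first donor was present in 89.3% and 88.8% of the reads of the 10 genes, counting the starts of short annotated transcripts.

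Around the 10 genes, genes listed for other components of the junction were read at widely different levels. The RNA was of whole gastrocnemius, so their reads need not come from the junction. A list of 83 annotated genes covered signalling to the receptor, scaffold, basal lamina, esterase anchoring, transcription, glycosylation, other receptor subunits and the nerve ending. Of these, 62 had a read and 39 had a mean of 10 CPM or more. The median of those with reads was 17.2 CPM, at percentile 64.4 of annotated genes with reads. Between the libraries 41 were tested and 6 called by the exact binomial test, beside the 4.66% of all genes given above. All 6 were higher in replicate 1. The direction of the calls over all genes is not given here, so this direction is not read as particular to the list. Any part of the longer mean transcript model of replicate 1 was not tested.

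Of 16 genes that signal to the receptor, 14 had reads, and 11 reached a mean of 10 CPM. Agrn, the agrin gene, had 20.1 and 11.7 CPM, and Lrp4, its receptor, had 7.86 and 5.31 CPM. Of the downstream partners of the kinase in the list, those of highest level were Pak1, with a mean of 274 CPM, Cdc42 247 CPM, Dvl1 239 CPM, Dnaja3 181 CPM and Rac1 123 CPM. P4hb, which encodes protein disulfide isomerase and assists the folding of collagens, had the highest mean of the list at 485 CPM. The myogenic factors Myog and Myf6 averaged 326 ± 59.1 and 137 ± 23.7 CPM (SD, n = 2). Of scaffold genes, Plec averaged 144 CPM. Of basal lamina genes, Lamc1 averaged 150 CPM, and Lamb2, the synaptic laminin chain, had 199 and 98.7 CPM, a log2 fold of 1.01 that was called (adjusted p = 1.55e-07, exact binomial test). Nerve genes were nearly absent: Stmn2 had 2 and 5 reads, Isl1 3 and 0 reads, and Nefh 1 and 0 reads.

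Of 11 receptor subunit genes outside the muscle set, 2 had reads. Chrna9, which encodes the alpha9 subunit known from cochlear hair cells, had 43.6 CPM (50 reads) in replicate 1 and 54.1 CPM (51 reads) in replicate 2. Its level thus lay near those of Dok7 and Rapsn. Chrna4, a neuronal subunit, had 6 and 1 reads. The other 9, among them Chrna10, had 0 reads in both libraries, which is under the floor of 2.62 and 3.19 CPM.

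**Figure D5:**
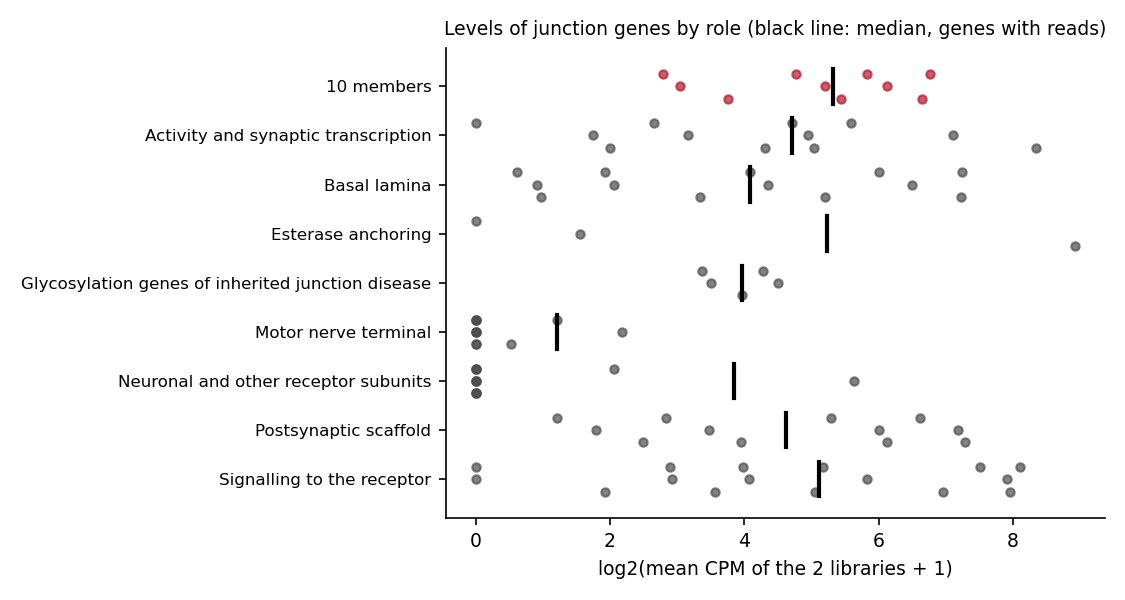
Mean level over the 2 libraries of the 10 genes (red) and of the 83 listed junction genes by role (grey), as log2 of CPM plus 1 (horizontal axis), with the median of genes with reads as a black line. Genes of the motor nerve terminal lie at or near 0, and the highest point, P4hb, is among the esterase anchoring genes.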

How the data were processed

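Per the labels, total RNA of 2 biological replicates, numbered as separate males but under the same donor ID, was sequenced as long reads, 1 library each. The authors deposited raw read counts per transcript model, with no normalization, and an annotation of the models on mm10 with GENCODE M21. The annotation carries TALON attributes per the file headers. For the aligner, no name was given in the sources used here. Each library has its own version of the pipeline document in the labels, so document and replicate cannot be told apart. Model ends follow annotated ends in places, so ends and lengths are uncertain.

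Counts were summed per gene, per intron chain, per intron and per exon. CPM used 1000000 mouse reads, with ERCC RNA left out. Genes with a sum of at least 20 reads had an exact two-sided binomial test. Fisher's exact test was used for exons with 20 or more spanning reads per library. It was also used for every model of a gene with 20 or more reads per library, however few reads the model had. The Benjamini-Hochberg adjustment ran over all tested features of a kind, and a call needed an adjusted p under 0.05 with a 2-fold or 10-point difference. Inclusion is reads that hold exactly an exon over these plus reads with an intron across all of it; reads with an overlapping form are in neither count. Intervals are 95% Poisson for levels, Wilson for models, sites and exons, and Clopper-Pearson for subunit shares, and cover counting error only. Scaling alternatives used edgeR 4.0.16 and DESeq2 1.42.0, whose factors moved the log2 ratio of the libraries by -0.02 each. Other tests ran in Python 3.11.15 with scipy 1.17.1. The gene test and the model share test were tried on simulated counts that held counting error only. For exons, only the counting of reads was checked, on a made-up gene.

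Named were all 10 genes, the 12 listed genes of highest mean CPM, listed receptor and nerve genes with a read, models with 5% and 5 reads of a gene, and exons with 10 spanning reads and inclusion of 5% to 95%. Agrn, Lrp4, Rapsn exon 3, retained introns, site choices and model details under these limits were chosen after their values were seen. Some items that these rules take are not reported. The 10 genes and the lists were chosen with earlier results of these data known.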

Additional observations from a re-analysis of the deposited data

How the results depend on the processing

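The count of genes called between the libraries, 357, became 685 with a minimum of 5 reads, 76 with a minimum of 100, 170 with annotated transcripts only and 867 without the fold limit. The count for the 10 genes, 0, became 1, which is Ache, with annotated transcripts only and 1 without the fold limit. The mean share of Chrne in Chrne plus Chrng, 83.1%, became 77.9% with annotated transcripts only and 86.9% with incomplete and genomic classes left out. Models called, 105, became 220 without the limit of 10 points, and exons called, 3, became 8. The annotated share of the 10 genes' reads, 71.2%, became 71.7% without the genomic class. The median of the listed genes, 17.2 CPM, became 20.8 CPM with annotated transcripts only, and lay between 17.0 and 19.2 CPM with 1 library left out. With annotated transcripts only, mean Chrne was 23.1 CPM, against 35.7 CPM with all reads. That setting keeps 18 of 44 Chrne reads (40.9%) in replicate 1 and 17 of 31 (54.8%) in replicate 2. Of all mouse reads it keeps 70.9% and 74.9%. The cause of the lower annotated share of Chrne was not tested. Of the main results, 29 of 42 values under alternatives moved by less than the limit set for them. Those limits are not given here, so this count says little on its own. The values that moved more include the count for the 10 genes, which went from 0 to 1. Gene calls were not run with a library left out, which leaves no comparison. No paired analysis was possible because the libraries form 1 group. Chrng and Musk, with 5 to 8 reads a library, limit any statement on their isoforms.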

Other observations

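Beyond the annotated end of Ache, 44 of 149 reads (29.5%, Wilson interval 22.8% to 37.3%) in replicate 1 and 22 of 64 reads (34.4%, 23.9% to 46.6%) in replicate 2 belonged to models that end at chr5:137295665. This is the annotated end of Ufsp1, a protease gene of the UFM1 pathway that begins 163 nt after Ache on the same strand and had 8 and 5 reads of its own. Whether these ends are those of the RNA or were set by the annotation was not tested.

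Reads on the strand opposite to Musk, assigned to unannotated genes, numbered 6 in replicate 1 and 11 in replicate 2, beside 5 and 7 reads of Musk itself. Of these, 2 and 9 reads belonged to an unspliced model at chr4:58285962-58286190, which covers the first exon of Musk. Their origin was not tested.

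Of the 101 Chrna9 reads, 48 of 50 in replicate 1 and 49 of 51 in replicate 2 followed the annotated transcript Chrna9-201 of 5 exons through its whole chain of introns. No read of Chrna10, whose protein pairs with alpha9 in hair cells, was found in either library. The gene was singled out after its level was seen.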
